A study of Rattus norvegicus with 18 samples.

Results

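Glutamate_BPC and Control are 2 of the 6 treatments that the labels give to neuroglial cultures grown from rat brain cortex. The comparison is between the 6 libraries that carry those labels, out of 18 in the whole series. All 18 libraries entered the fit from which the spread was estimated. Control cultures received neither glutamate nor a cell preparation. Glutamate_BPC cultures received material released by human glial progenitor cells on the day before, and then 100 µM glutamate for 1 h on day 10 in vitro; RNA was taken 4 h after the exposure. The labels do not say whether BPC denotes the total secretome or its protein fraction, so the name is used as given. All cultures came from newborn Wistar rats and had been treated with cytosine arabinoside, which limits the growth of dividing glia. No group received the preparation without glutamate, and the action of glutamate and that of the preparation cannot be told apart in this comparison. For this reason the groups Glutamate (glutamate alone) and Glutamate_secret (glutamate with another preparation) are set beside it where a direct test was made. The replicates are numbered 1 to 3 in each group. The labels do not tie a library to a culture or a day, although the study speaks of unrelated cultures and of a day covariate. No day term could therefore be fitted. The p-values rest on the spread between libraries within the 6 groups, which may in part be technical.

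Glutamate is the main excitatory transmitter of the cortex. It opens AMPA, kainate and NMDA receptors, and prolonged exposure lets calcium into neurons, a process known as excitotoxicity. Calcium entry switches on immediate early genes, transcription factors of the Fos, Jun, Egr and Nr4a families that are made within minutes and drive later waves of transcription. Glial cells take up glutamate and tolerate it better than neurons. In a bulk sample of a mixed culture, fewer cells of a type and less RNA per cell cannot be told apart.

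Among the genes with the smallest p-values that were higher in Glutamate_BPC, Ccn1 and Ccn2 encode secreted matricellular proteins, which bind integrins and are well-known targets of the TEAD factors with their coactivator YAP. Vgf encodes a secreted neuronal peptide precursor and is a well-known target of the cyclic AMP response factor CREB. The sequences of the 250 bases ahead of their transcription starts are shown here because these genes are described at length later. They were taken from the RefSeq promoter table of the assembly GRCr8 and run 5′ to 3′ on the strand of the gene, which is the minus strand for all 3 genes. The capitals mark the letters GGAATG on either strand, which TEAD factors are known to bind, in Ccn1 (chr2:237225690-237225939) and Ccn2 (chr1:22624615-22624864), and the letters TGACGTCA, the palindromic cyclic AMP response element, in Vgf (chr12:25277021-25277270).
Ccn1: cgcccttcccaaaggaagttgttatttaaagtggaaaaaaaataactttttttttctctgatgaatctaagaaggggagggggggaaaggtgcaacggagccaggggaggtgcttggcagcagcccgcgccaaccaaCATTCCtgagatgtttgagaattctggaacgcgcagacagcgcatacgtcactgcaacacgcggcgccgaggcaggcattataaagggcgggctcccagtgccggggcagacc
Ccn2: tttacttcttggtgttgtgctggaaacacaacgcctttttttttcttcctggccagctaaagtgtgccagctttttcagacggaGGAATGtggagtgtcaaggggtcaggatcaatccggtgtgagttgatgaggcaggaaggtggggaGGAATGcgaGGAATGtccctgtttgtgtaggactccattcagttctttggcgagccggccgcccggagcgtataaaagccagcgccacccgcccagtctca
Vgf: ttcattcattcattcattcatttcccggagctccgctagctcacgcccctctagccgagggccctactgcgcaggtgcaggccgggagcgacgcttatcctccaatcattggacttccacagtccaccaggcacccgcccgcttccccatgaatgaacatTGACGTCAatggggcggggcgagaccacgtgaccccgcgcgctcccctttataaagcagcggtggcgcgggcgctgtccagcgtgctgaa
Ccn1 holds 1 match, which starts 113 bases ahead of the transcription start and lies in the reverse orientation. Ccn2 holds 3 matches, starting 166, 101 and 92 bases ahead. Vgf holds 1 match, 90 bases ahead. The table had an entry for 10625 of the 14398 tested genes, and GGAATG was found on either strand in 9.62% and TGACGTCA in 3.0% of these windows. Of the 59 tested genes in the 4 early response lists described further on, 47 had an entry, and each motif was found in 5 of them (10.6%). These matches describe letters in a window and show no binding.

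The libraries of the comparison held between 8409574 and 14869744 counts. Ribosomal RNA (rRNA) took 13.9%, 8.15% and 20.1% of the counts in Glutamate_BPC 1 to 3, and 43.0%, 6.80% and 6.58% in Control 1 to 3. Control 1 therefore stood apart: it had the lowest total, 14318 detected genes against 17445 and 17279 in the other Control libraries, and a TMM scaling factor of 0.417. Values without Control 1 are given beside the main counts and beside each list count that moved by over 1.5 times. A value of 3 counts corresponded to 0.857 CPM in Control 1 (CPM are counts scaled to a common library size by edgeR) and to between 0.147 and 0.325 CPM in the other 5 libraries, so low genes were measured less precisely in Control 1.

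The Glutamate_BPC libraries had lower levels of a broad set of neuronal and synaptic genes than Control. Levels of many immediate early factors and of matricellular, cell cycle and some inflammatory genes were higher. No single gene passed the main test: in the quasi-likelihood test of edgeR, 0 of 14398 genes (0%) reached an adjusted p below 0.05, with 0.292 as the smallest value. Without adjustment, 1632 genes had a p below 0.05. When the fold change also had to exceed 1.5, the criterion that the study itself counted, 562 genes were higher (3.9% of those tested) and 1066 were lower (7.4%). The methods of the study name a false discovery rate instead. Genes that meet the criterion are called past p and fold below. Without Control 1, these numbers were 332 (2.26% of 14677 tested) and 970 (6.61%), and without Glutamate_BPC 3 they were 347 and 605. The counts of list members below are read against these shares of all genes, those without Control 1 against the shares without it. The 3 Glutamate_BPC values lay all above the 3 Control values for 12.2% of the genes and all below them for 12.7%.

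Other tools made calls at an adjusted p below 0.05. DESeq2 called 89 genes higher (0.631% of the 14100 genes to which it gave an adjusted p) and 167 lower (1.18%). The likelihood-ratio test of edgeR, which treats the estimated dispersions as known, called 18 higher (0.125%) and 43 lower (0.299%). All 61 of the latter and 254 of the 256 genes called by DESeq2 were also past p and fold in the quasi-likelihood fit. The tools tested the same counts, and past p and fold is the looser rule, so this overlap is no separate support. The median log2 fold change of all genes was -0.06, against which the gene groups are read.

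**Figure D1:**
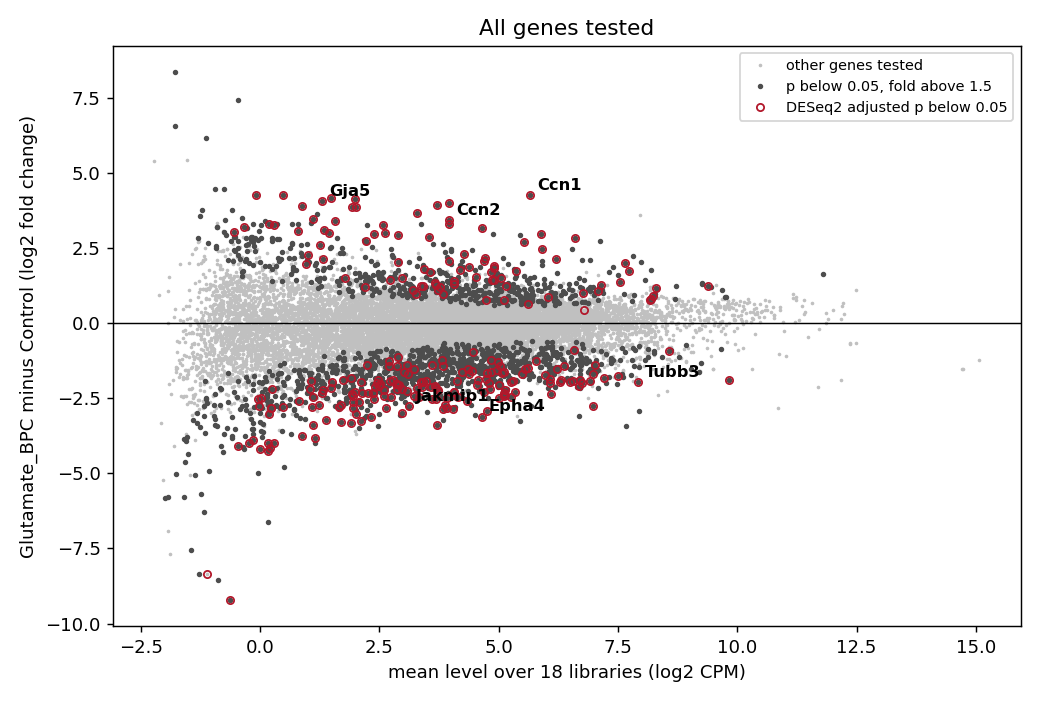
Each point is 1 of the 14398 genes tested, with its mean level over all 18 libraries (log2 CPM) on the x axis and its log2 fold change, Glutamate_BPC minus Control, on the y axis. Dark points are past p and fold, 562 above and 1066 below the line at 0, and red circles are the 256 genes called by DESeq2. The largest fold changes belong to genes of low level.

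The 10 leading genes that were higher, taken by the smallest p among genes of sufficient level without overlap between the groups, include early response genes, matricellular genes and genes of cell membranes. Ccn1 stood at 186, 200 and 88.0 CPM in Glutamate_BPC 1 to 3 and at 14.3, 3.98 and 7.05 CPM in Control 1 to 3. The log2 fold change was 4.26 ± 0.81 (SE), a 19.2-fold difference, with an adjusted p of 0.292 in edgeR and 3.39e-05 in DESeq2. Ccn2 was at 38.7, 113 and 21.6 CPM against 5.42, 6.23 and 4.42 CPM, a log2 fold change of 3.43 ± 0.68. All Glutamate_BPC libraries lay above all Control libraries for both genes, but Glutamate_BPC 2 carried much of the Ccn2 mean, and its log2 fold change was 2.49 without that library.

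Gja5, which encodes a gap junction connexin found in vessel walls, had the smallest p of the comparison among these genes. Its level was 8.06, 10.0 and 3.15 CPM in Glutamate_BPC and 0.286, 0.196 and 0.700 CPM in Control, which gives a log2 fold change of 4.07 ± 0.70 with a DESeq2 adjusted p of 2.43e-05. The Control values rest on few reads, and that of Control 1 lies below its level of 3 counts. Mcam, an adhesion molecule of vascular cells, was at 40.0, 50.3 and 44.5 CPM against 7.71, 7.51 and 14.4 CPM, with a log2 fold change of 2.18 ± 0.40. Dysf, which encodes dysferlin, a protein of plasma membrane repair, was tightly placed in Glutamate_BPC at 23.9, 21.4 and 21.5 CPM, against 3.71, 4.96 and 7.11 CPM in Control. Fxyd5, a regulatory subunit of the sodium pump, was at 7.52, 20.4 and 29.2 CPM against 0.286, 1.67 and 1.62 CPM. The groups of these 4 genes did not overlap, which the rule that chose them required.

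The other leading genes are signalling genes that respond quickly to stimuli. Ier3, an immediate early gene, was at 35.9, 45.9 and 20.1 CPM in Glutamate_BPC and at 1.14, 1.86 and 3.34 CPM in Control, a 15.4-fold difference. Hbegf, a growth factor that binds the EGF receptor, was at 202, 285 and 81.1 CPM against 38.0, 16.2 and 25.1 CPM. Nr4a1, an orphan nuclear receptor, was at 36.0, 41.8 and 8.89 CPM against 3.14, 4.12 and 4.58 CPM. Trib1, a pseudokinase, had a log2 fold change of 1.49 ± 0.35, the smallest of the 10. In Ccn1, Ier3, Hbegf and Nr4a1, Glutamate_BPC 3 was the lowest library of its group. It lay above every Control library, as the rule that chose these genes required.

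The 10 leading genes that were lower are mostly genes of neurons. Tubb3, the neuronal form of beta-tubulin, stood at 217, 172 and 147 CPM in Glutamate_BPC and at 493, 946 and 670 CPM in Control, so that its log2 fold change was -1.97 ± 0.43, or 3.93-fold lower, with an adjusted p of 0.00251 in DESeq2. Jakmip1, which links kinase signalling to microtubules in neurons, was at 5.89, 5.42 and 4.99 CPM against 32.8, 44.2 and 34.0 CPM, a log2 fold change of -2.77 ± 0.52. Both groups of Jakmip1 were narrow, and the gene had the smallest p among the lower genes. LRRTM1, spelled as in the files, encodes a postsynaptic adhesion protein, and its levels were 8.78, 8.36 and 5.97 CPM against 25.1, 29.99 and 33.9 CPM.

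Epha4, an ephrin receptor of axon guidance, was at 11.5, 13.4 and 10.1 CPM in Glutamate_BPC and at 164, 77.8 and 61.1 CPM in Control. Elmod1 was at 10.9, 10.1 and 5.53 CPM against 43.1, 85.5 and 63.7 CPM. Orai2, a subunit of store-operated calcium channels, was at 8.33, 6.46 and 5.53 CPM against 53.7, 40.5 and 23.9 CPM. Akap7, an anchor of protein kinase A, and Sybu, a linker of axonal cargo to kinesin, had log2 fold changes of -1.61 ± 0.34 and -1.65 ± 0.35. In each of these genes the 2 groups were apart, again as the rule required.

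For the remaining 2 lower genes Control 1 mattered. Neurod1, a transcription factor of neuronal differentiation, was at 0.724, 2.08 and 1.19 CPM in Glutamate_BPC and at 25.4, 6.72 and 5.92 CPM in Control, and its log2 fold change of -3.21 ± 0.70 was -2.23 without Control 1. Tgfb2, a growth factor of the TGF-beta family, was at 39.8, 36.7 and 38.8 CPM against 393, 113 and 87.0 CPM, and its log2 fold change of -2.36 ± 0.52 was -1.38 without Control 1. The groups were apart in both cases, as the rule that chose the genes required, with Control 1 far above the other Control libraries. All 20 leading genes were called by DESeq2, with adjusted p-values between 2.43e-05 and 0.0067, while the quasi-likelihood adjusted p-values lay between 0.292 and 0.295. DESeq2 tested the same counts from which these genes were chosen, so its calls are no separate support.

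**Figure D2:**
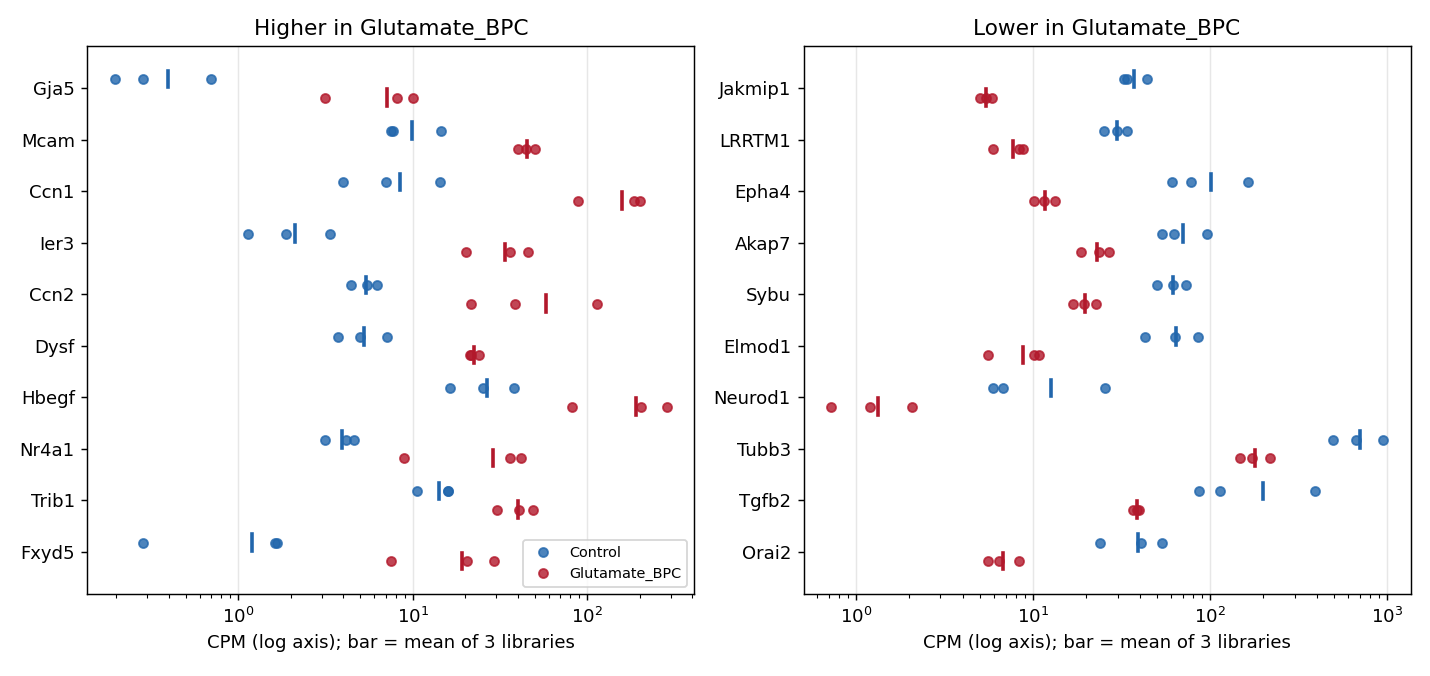
CPM on a log axis of the 10 leading higher genes (left) and the 10 leading lower genes (right) in the 3 Control libraries (blue) and the 3 Glutamate_BPC libraries (red); the bars are the means. The groups do not overlap in any of the 20 genes, which was part of the rule that chose them; Ccn1 runs from 88.0 to 200 CPM in Glutamate_BPC and from 3.98 to 14.3 CPM in Control.

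Most immediate early factors lay in the higher direction. Of 11 tested AP-1 factors, the Fos and Jun proteins and their relatives, 4 were past p and fold in the higher direction and 0 in the lower, all 11 had a positive log2 fold change, and the median was 1.29. Fos itself was at 38.7, 31.6 and 52.8 CPM in Glutamate_BPC and at 13.7, 11.9 and 9.10 CPM in Control, a 3.56-fold difference with a DESeq2 adjusted p of 0.00864. Maff, Junb and Atf3, a factor also induced by stress, had log2 fold changes of 2.74 ± 0.80, 2.07 ± 0.67 and 1.52 ± 0.52. None of the 4 genes overlapped between the groups. Jun and Jund, with log2 fold changes of 0.38 and 0.13, did not meet the criterion. The median of the list, taken in each library relative to the mean of Control, was 1.72, 1.87 and 0.69 in Glutamate_BPC 1 to 3, so the third library was the lowest.

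Among 14 tested genes of the Egr and Nr4a group and other early factors, 8 were higher and 2 lower past p and fold, with a median of 1.16; without Control 1, 7 were higher and 0 lower of 15 tested. Besides Ier3 and Nr4a1, Egr2 was at 4.26, 9.45 and 1.74 CPM against 0, 0.933 and 0.916 CPM, and Klf4 at 18.02, 17 and 8.24 CPM against 7.99, 3.63 and 3.77 CPM. The 2 members that were lower were Egr3 and Klf2, with log2 fold changes of -2.71 and -1.555. Nr4a2 and Nr4a3, at 0.35 and 0.40, did not meet the criterion. Neuronal effector genes of activity did not move as one group: 4 of 18 were higher and 2 lower, and the median was -0.27; without Control 1, 3 were higher and 1 lower. Vgf was at 126, 131 and 70.8 CPM against 10.8, 9.42 and 21.4 CPM, and Nptx2, a secreted pentraxin that clusters AMPA receptors, was at 25.9, 22.8 and 13.6 CPM against 8.57, 5.69 and 8.24 CPM. Plk2, a kinase that weakens active synapses, lay in the other direction with a log2 fold change of -2.28 ± 0.64. The groups were apart in these 3 genes.

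Arc and Bdnf, the best-known effector genes of neuronal activity, did not pass the criterion. Arc was at 2.35, 3.17 and 1.95 CPM in Glutamate_BPC and at 0, 1.96 and 1.40 CPM in Control, and Bdnf had a log2 fold change of 0.50 ± 0.63. Npas4 was too low to test, with 1 count over the Glutamate_BPC libraries and 10 over Control. Of 16 brakes on ERK signalling, 4 were higher and 0 lower. They were Dusp5 and Dusp6, phosphatases that act on ERK, with log2 fold changes of 2.23 ± 0.78 and 1.00 ± 0.40, and Spry4 and Spred3, with 1.41 ± 0.62 and 1.23 ± 0.55; the groups of Dusp6 and Spry4 overlapped. The median of that list was -0.02, close to that of all genes.

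Among the 3 lists of the extracellular matrix, the matricellular list held most of the genes past p and fold in the higher direction. Of 25 tested matricellular proteins and fibulins, 10 were higher and 1 was lower, with a median of 1.20; without Control 1, 5 of 28 were higher and the median was 1.00. Fbln5, an elastic fibre protein, was at 43.9, 66.1 and 31.9 CPM against 10.8, 21.8 and 21.4 CPM. Ccn3, of the same family as Ccn1 and Ccn2, was the member that was lower, at 0.634, 0.865 and 0.651 CPM against 2.28, 2.99 and 3.02 CPM. Timp1, an inhibitor of matrix metalloproteinases, was at 352, 200 and 211 CPM against 40.8, 20.4 and 51.9 CPM, with a log2 fold change of 2.75 ± 0.97. Adamts1 overlapped between the groups because Glutamate_BPC 3 was at 0.759 CPM, against 12.2 and 21.9 CPM in Glutamate_BPC 1 and 2. In the list of metalloproteinases and inhibitors 2 of 15 were higher and 1 lower, and Mmp9 and Mmp13 were listed at 0 in all 6 libraries. The median of that list was 0.25, and -0.13 without Control 1. Of 18 collagen chains 2 were higher, Col18a1 and Col1a1, and the median was 0.09; without Control 1, 1 of 20 was higher and 1 lower.

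In the group of integrins and TGF-beta signalling, 4 of 26 were higher and 2 lower, against 3.9% and 7.4% of all genes. The number that was lower lay near the share of all genes. Of its ligands, 2 lay in opposite directions. Tgfb1 was at 8.60, 16.02 and 25.5 CPM in Glutamate_BPC and at 1.14, 3.78 and 6.79 CPM in Control, with 2.05 ± 0.61 as its log2 fold change, whereas Tgfb2 was lower. Id1, a target of BMP signalling, had a log2 fold change of 1.76 ± 0.59. Of 24 tested inflammatory genes, 11 were higher and 1 lower, with a median of 0.77; without Control 1, 7 were higher and 1 lower. A negative log2 fold change was found in 8 of the 24. The list median per library, relative to the mean of Control, was 0.70, 1.44 and 0.51 in Glutamate_BPC 1 to 3. It was -0.45, -0.05 and 0.86 in Control 1 to 3, so the groups overlapped through Control 3. The chemokines in the list lay in both directions. Ccl2, which attracts monocytes, was at 49.4, 58.5 and 12.04 CPM against 1.71, 0.245 and 5.28 CPM, and Ccl7 at 14.0, 14.6 and 3.04 CPM against 0.571, 0.245 and 2.26 CPM. Nfkb2, a subunit of NF-kB, was at 24.1, 18.6 and 19.0 CPM against 0.857, 4.86 and 12.7 CPM. Lif, a cytokine, ranged from 1.30 to 20.1 CPM within Glutamate_BPC and overlapped with Control.

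Most receptors for glutamate lay in the lower direction. Of 7 NMDA receptor subunits 3 were lower past p and fold and 0 higher, with a median of -1.61. Taken in each library relative to the mean of Control, the list median was -0.34, -0.71 and -1.05 in Glutamate_BPC 1 to 3. It was -1.04, 0.74 and 0.34 in Control 1 to 3, so the groups overlapped through Control 1. Grin1, the subunit present in every NMDA receptor, was at 32.4, 17.4 and 24.7 CPM in Glutamate_BPC and at 44.0, 98.1 and 94.1 CPM in Control, so that its log2 fold change was -1.67 ± 0.61. Grin2b was at 10.8, 6.74 and 7.16 CPM against 12.3, 53.2 and 25.1 CPM. Both genes were apart between the groups, but Control 1 lay close to the Glutamate_BPC values. Grin2d overlapped, with Control 1 at 0.571 CPM against 7.17 and 5.98 CPM in the other Control libraries. Grin2c lay in the other direction, at 2.45, 2.19 and 2.28 CPM against 1.14, 1.03 and 0.808 CPM, with the groups apart and a log2 fold change of 1.23 ± 0.59 that did not meet the criterion.

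All 16 AMPA receptor subunits and auxiliary proteins had a negative log2 fold change, 6 of them past p and fold, and the median was -1.35. Gria2, the subunit that keeps AMPA receptors from passing calcium, was at 74.3, 108 and 63.1 CPM against 382, 221 and 158 CPM. Gria1 was at 4.80, 3.29 and 3.47 CPM against 10.8, 46.4 and 37.6 CPM. Among the 13 kainate and metabotropic receptors 6 were lower, and all 13 were negative. Grm2, a presynaptic metabotropic receptor, was at 0.815, 0.288 and 0.325 CPM against 2.00, 3.04 and 3.02 CPM and was called by DESeq2 with an adjusted p of 0.00671. Its Glutamate_BPC values rest on few reads, 17 counts over the 3 libraries. The glutamate uptake and recycling list was split: 4 of 16 were lower, and its median was -0.04. The members that were lower include the vesicular transporters Slc17a7, at 19.5, 8.24 and 8.89 CPM against 51.4, 78.3 and 52.9 CPM, and Slc17a6, which load glutamate into synaptic vesicles, and Slc1a6, a neuronal uptake transporter.

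Genes of the inhibitory transmitter GABA had the lowest median of all lists, -1.91, with 6 of 19 lower and 0 higher past p and fold. In 15 of the 19 the Glutamate_BPC values lay all below Control, against 12.7% of all genes. Slc32a1, the vesicular transporter of GABA, was at 11.1, 6.28 and 9.003 CPM in Glutamate_BPC and at 18.8, 41.2 and 40.8 CPM in Control, with a log2 fold change of -1.94 ± 0.46 and a DESeq2 adjusted p of 0.00978. Gabbr2, a subunit of the metabotropic GABA receptor, was at 14.4, 9.80 and 6.83 CPM against 40.3, 50.0 and 43.0 CPM, with a log2 fold change of -2.10 ± 0.67, and the groups did not overlap.

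The machinery of transmitter release lay in the lower direction throughout. All 30 tested members had a negative log2 fold change, 13 were past p and fold, and the median was -1.58; without Control 1, 16 of 31 were lower. Cplx2, a complexin that clamps the SNARE complex, was at 11.8, 15.3 and 18.01 CPM against 144, 60.9 and 40.8 CPM. Sv2a, a synaptic vesicle protein, was at 61.4, 32.7 and 44.7 CPM against 163, 178 and 114 CPM, and Syn2 and Stx1a had log2 fold changes of -2.18 ± 0.63 and -1.99 ± 0.66. Snap25, a SNARE protein of nerve endings, did not pass the criterion: it was at 21.8, 45.1 and 9.87 CPM against 34.3, 99.9 and 105 CPM, and Control 1 lay within the Glutamate_BPC range.

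Postsynaptic scaffolds were lower in 8 of 22 and higher in 0, with a median of -1.33. The list median relative to the mean of Control was -0.82 in Control 1, next to -0.84 in Glutamate_BPC 1. Camk2b, a calcium-dependent kinase of the postsynaptic density, was at 131, 94.3 and 89.2 CPM in Glutamate_BPC and at 334, 460 and 331 CPM in Control, and Camk2a was at 1.99, 2.48 and 2.17 CPM against 8.28, 26.5 and 24.4 CPM. Dlgap2 and Shank2 had log2 fold changes of -2.37 ± 0.81 and -2.01 ± 0.69. All 26 synaptic adhesion genes were negative, 9 of them past p and fold, and the median was -1.29; without Control 1 the number past p and fold was 5. Cadm3 was at 43.1, 26.4 and 37.6 CPM against 58.5, 135 and 115 CPM. Flrt3 and Lrrc4c depended on Control 1, where they stood at 389 and 217 CPM against at most 25.3 and 54.1 CPM in the other Control libraries, and without it their log2 fold changes were -0.20 and -0.95.

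Ion channel genes followed the same direction. Of 33 potassium channel genes, 21 were lower and 1 higher, with a median of -1.48. Kcnj6 and Kcnj4, inward rectifiers, were at 4.44, 3.40 and 4.01 CPM against 54.2, 24.1 and 17.3 CPM, and at 2.72, 1.73 and 2.06 CPM against 20.6, 17.96 and 14.3 CPM. Kcnk2 had a log2 fold change of -1.40 ± 0.40. The member that was higher, Kcnip3, encodes a calcium sensor that binds potassium channels and also represses transcription; it was at 16.7, 10.1 and 12.4 CPM against 3.43, 5.50 and 4.79 CPM. All 15 voltage-gated calcium channel genes were negative and 6 were past p and fold, among them Cacna1i, at 0.362, 0.231 and 0.434 CPM against 3.43, 3.78 and 4.69 CPM, Cacna2d3 and Cacnb3. Cacna1i rested on 12 counts over the 3 Glutamate_BPC libraries. Of 9 sodium channel genes 2 were lower, the auxiliary subunits Scn3b and Scn2b, with log2 fold changes of -1.64 ± 0.46 and -1.23 ± 0.39.

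Of 24 calcium pumps, exchangers and store genes, 6 were lower and 0 higher, and the median was -0.93. Relative to the mean of Control, the list median of Control 1 was -0.59, within the Glutamate_BPC values of -0.62, -0.44 and -0.83. Atp2b4 and Atp2b2, pumps that move calcium out of the cell, were at 15.8, 19.3 and 23.1 CPM against 160, 67.7 and 60.7 CPM, and at 7.61, 6.51 and 5.32 CPM against 13.4, 38.2 and 33.4 CPM. Micu3, a regulator of the mitochondrial calcium uniporter, met the criterion through Control 1 alone, with 85.7 CPM there against 3.63 and 3.23 CPM in Control 2 and 3, and between 2.71 and 4.32 CPM in Glutamate_BPC. Without Control 1 its log2 fold change was 0.11.

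All 25 genes of the neuronal cytoskeleton had a negative log2 fold change, 10 of them past p and fold, and the median was -1.44. Mapt, which encodes the microtubule protein tau, was at 746, 540 and 590 CPM in Glutamate_BPC and at 3421, 2399 and 1094 CPM in Control. Tubb4a, another beta-tubulin of the brain, was at 78.5, 61.2 and 54.9 CPM against 100, 213 and 196 CPM. Neuropeptides and granins were mixed, with 2 of 15 higher and 2 lower; without Control 1, 1 of 16 was higher and 1 lower. Chgb and Chga, granins of dense core vesicles, had log2 fold changes of -1.52 ± 0.49 and -1.47 ± 0.59, whereas Vgf, of the same class of secreted proteins, was higher. The neuropeptide gene Gal lay near the detection limit, at most 1.21 CPM in any of the 6 libraries.

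**Figure D3:**
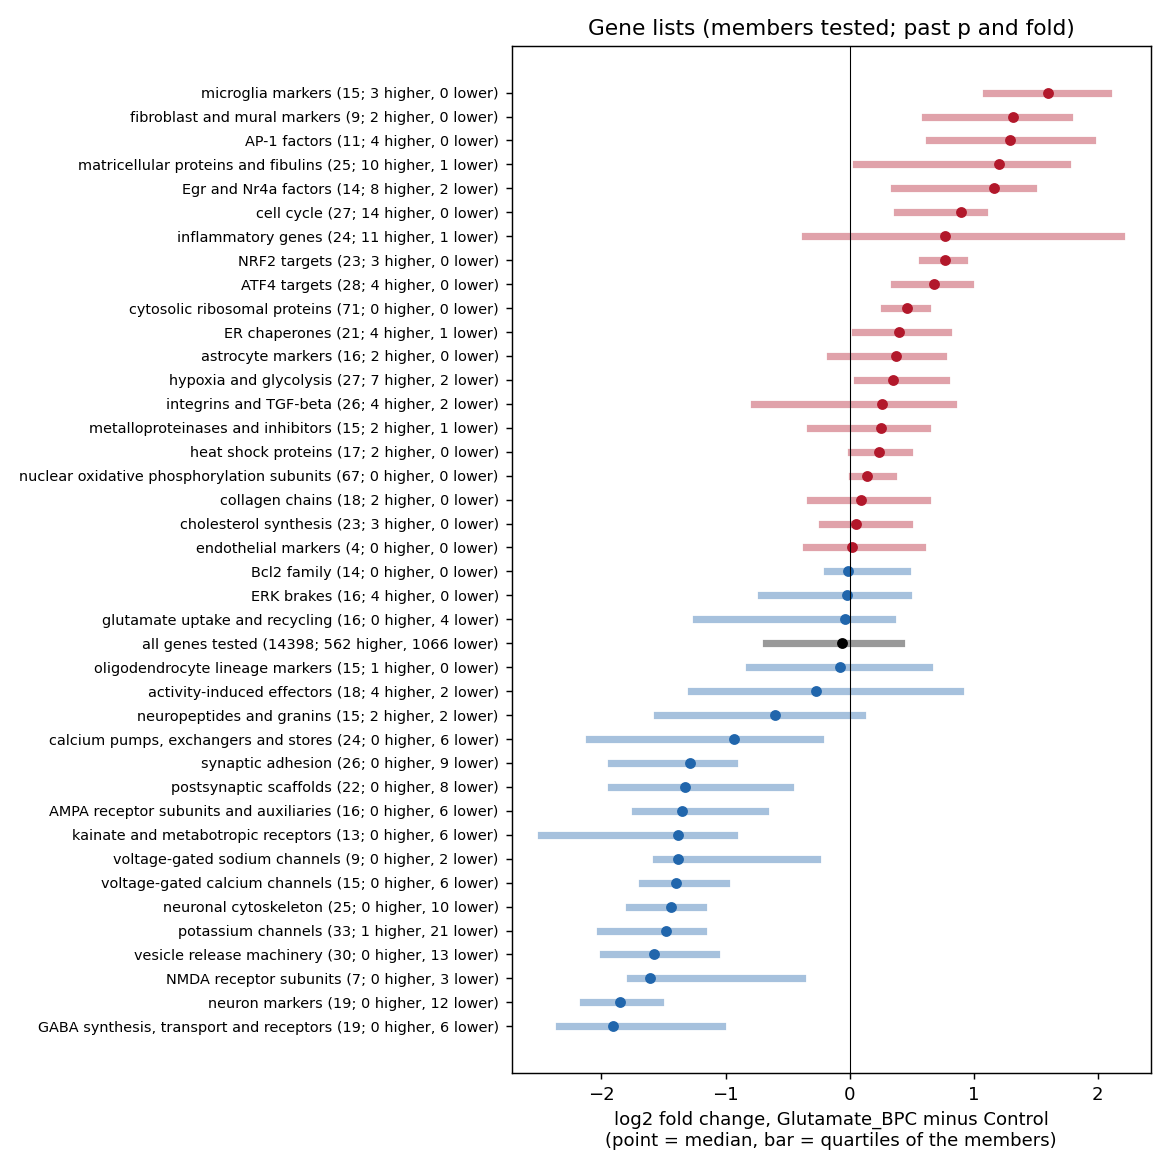
For each of the 39 gene lists and for all genes tested (black), the point is the median and the bar runs from the lower to the upper quartile of the members' log2 fold changes, Glutamate_BPC minus Control; the labels give the members tested and those past p and fold. GABA genes have the lowest median, -1.91, and lists of receptors, release machinery, scaffolds, adhesion and channels lie at -1.29 or lower, while neuropeptides and granins are at -0.60, activity-induced effectors at -0.27 and glutamate uptake and recycling at -0.04; microglia markers are at the other end with 1.6.

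Stress genes were higher in smaller numbers. Of 28 targets of ATF4, the factor of the integrated stress response, 4 were higher and 0 lower, with a median of 0.68. Shmt2, a mitochondrial enzyme of serine metabolism, was at 174, 184 and 164 CPM against 86.8, 80.3 and 83.5 CPM, and Ppp1r15a, which reverses the translation block of this response, was at 155, 187 and 65.5 CPM against 52.0, 48.1 and 42.9 CPM. Ddit3, a factor linked to cell death under stress, did not differ beyond the spread, with a log2 fold change of 0.39 ± 0.86. Of 21 endoplasmic reticulum genes 4 were higher and 1 lower, with a median of 0.40; without Control 1, 2 were higher and 0 lower. Hspa5, the main chaperone of that compartment, was at 806, 957 and 526 CPM against 125, 388 and 420 CPM, and Creld2 at 69.6, 43.3 and 59.9 CPM against 21.1, 19.8 and 19.6 CPM.

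Of 23 targets of NRF2, the factor of the antioxidant response, 3 were higher and 0 lower, with a median of 0.77. Me1, malic enzyme, was at 215, 235 and 221 CPM against 83.4, 100 and 96.7 CPM, a log2 fold change of 1.26 ± 0.31 with a DESeq2 adjusted p of 0.00405. Hmox1, haem oxygenase, overlapped between the groups, with 344, 559 and 181 CPM against 72.8, 183 and 279 CPM. Of 17 heat shock proteins 2 were higher, the small chaperone Hspb1 and its partner Bag3, at 54.2, 53.5 and 110 CPM against 2.86, 2.70 and 21.5 CPM and at 64.3, 74.5 and 74.1 CPM against 6.57, 17.5 and 50.4 CPM; without Control 1, 0 of 17 were past p and fold. None of the 14 tested members of the Bcl2 family passed the criterion, and their median was -0.01.

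The medians of the metabolic lists lay between 0.05 and 0.46. Positive log2 fold changes were found in 21 of 27 hypoxia and glycolysis genes and in 12 of 23 cholesterol synthesis genes. In the hypoxia and glycolysis list 7 of 27 were higher and 2 lower, with a median of 0.35; without Control 1, 3 were higher and 3 lower. Slc2a1, the glucose transporter of glia and vessels, was at 93.2, 125 and 70.1 CPM in Glutamate_BPC and at 24.6, 34.0 and 66.9 CPM in Control, whereas Slc2a3, the neuronal glucose transporter, was at 8.51, 8.59 and 6.83 CPM against 8.85, 45.3 and 36.3 CPM. Ndrg1 was the other member that was lower, with a log2 fold change of -2.01 ± 0.60. Among 23 cholesterol synthesis genes 3 were higher, led by Msmo1, at 284, 279 and 199 CPM against 73.7, 102 and 117 CPM, and Cyp51, and the median was 0.05; without Control 1, 2 were higher and 1 lower. Cytosolic ribosomal protein genes and nuclear genes of oxidative phosphorylation had 0 members past p and fold among 71 and 67 tested. Of these, 69 and 52 had a positive log2 fold change. Their medians of 0.46 and 0.14 depended on Control 1 and became 1.49 and 1.03 without it.

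Cell cycle genes were higher in 14 of 27 and lower in 0, with a median of 0.90. In 17 of them the Glutamate_BPC values lay all above Control, against 12.2% of all genes. Mcm5 and Mcm7, parts of the helicase that opens DNA for replication, were at 30.7, 22.2 and 36.3 CPM against 8.28, 13.8 and 14.97 CPM, and at 75.5, 55.7 and 75.1 CPM against 33.4, 33.2 and 32.3 CPM. Plk1, a mitotic kinase, was at 18.8, 15.4 and 14.97 CPM against 5.42, 7.12 and 10.1 CPM. Cdkn1a, which encodes an inhibitor that stops the cycle, was higher as well, at 121, 124 and 82.1 CPM against 33.7, 66.4 and 49.5 CPM. Without Control 1 the number of members past p and fold was 6, all higher, while the median was 0.85.

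Neuron markers lay in the lower direction. The summed level of the neuron markers was 1452, 931.1 and 963.9 CPM in Glutamate_BPC and 4850, 3470 and 2522 CPM in Control. All 19 tested markers had a negative log2 fold change, 12 of them were past p and fold, and the median was -1.85; without Control 1, 8 were past p and fold and the median was -1.38. Bcl11b, of deep layer neurons, and Elavl4 rested in part on Control 1, where they stood at 165 and 443 CPM, and their log2 fold changes of -2.86 ± 0.89 and -1.98 ± 0.58 were -0.93 and -0.85 without it. The lists of synaptic and channel genes share this direction, and the part that a smaller share of neuronal RNA had in them was not tested.

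The summed levels of the other marker lists were higher than in Control or overlapped with it. The astrocyte markers summed to 10300, 10250 and 17520 CPM in Glutamate_BPC and 6258, 5001 and 9210 CPM in Control. Of the 16 markers 11 had a positive and 5 a negative log2 fold change, and the median was 0.37. The 2 past p and fold were Gfap and Vim, and without Control 1 there were 0 of 16. Gfap made up a large part of the sum. Gfap, the intermediate filament of reactive astrocytes, was at 5056, 5105 and 9940 CPM against 1275, 1590 and 3603 CPM, and Vim, another filament, at 837, 846 and 989 CPM against 188, 178 and 694 CPM. All 15 microglia markers had a positive log2 fold change, 3 of them past p and fold, namely Tmem119, Aif1 and Tyrobp, and the median was 1.6. Their sum was 215.5, 555.5 and 729.5 CPM in Glutamate_BPC against 84.23, 213.3 and 211.3 CPM in Control, so Glutamate_BPC 1 lay next to the highest Control library; without Control 1, 1 of 15 was past p and fold.

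The oligodendrocyte lineage markers summed to between 1230 and 1729 CPM in Glutamate_BPC and between 700.4 and 1311 CPM in Control. Of the 15 markers 7 had a positive and 8 a negative log2 fold change, and the median was -0.08. Only 1 of 15, Olig1, was past p and fold, at 411, 486 and 478 CPM against 207, 200 and 210 CPM. The fibroblast and mural markers, with 2 of 9 higher and without Control 1 with 1 of 9, summed to 586.7, 341.3 and 643.7 CPM against 149.6, 86.09 and 186.4 CPM. Most of that sum came from Tagln, a gene of smooth muscle that other cells with actin fibres express too, at 539, 287 and 598 CPM against 139, 48.1 and 159 CPM. Col1a1 reached at most 4.23 CPM, and Rgs5 was listed at 0 in all 6 libraries, as was Rpl38, a ribosomal protein gene. Only 4 of the 14 endothelial markers were tested, and 0 of them were past p and fold. The medians of the matricellular, inflammatory and cell cycle lists had the same sign as those of the microglia and the fibroblast and mural markers, and the part of these cells in them was not tested.

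**Figure D4:**
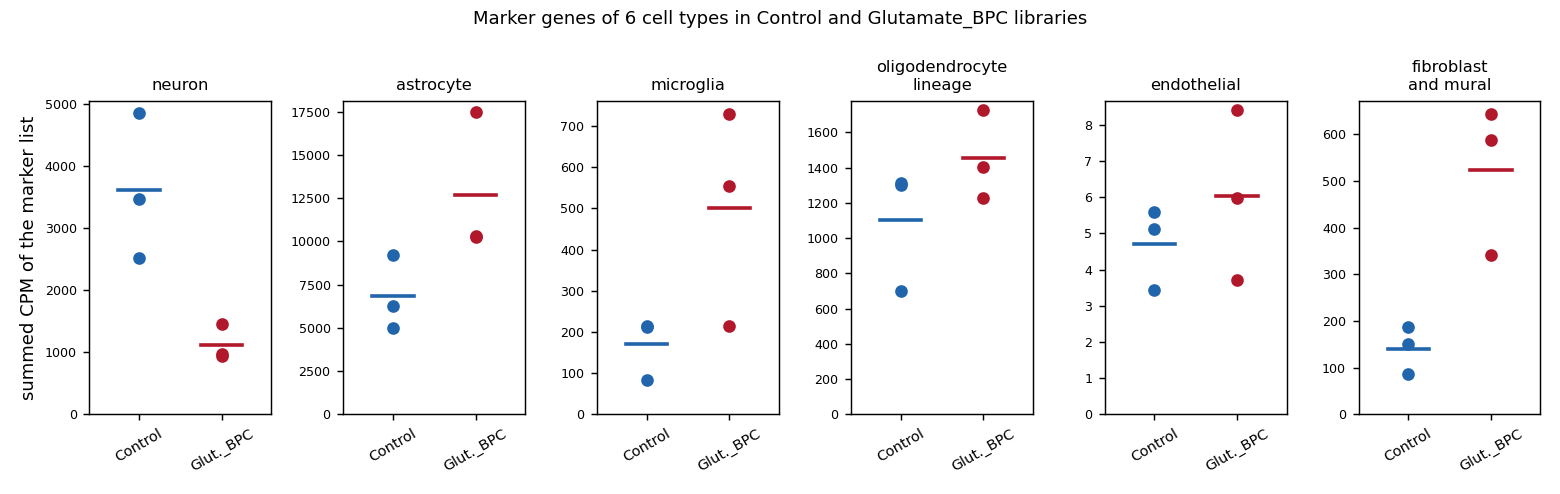
Summed CPM of the markers of 6 cell types in each of the 3 Control libraries (blue) and the 3 Glutamate_BPC libraries (red), with bars for the means and each y axis starting at 0. The neuron sum runs from 2522 to 4850 CPM in Control and from 931.1 to 1452 CPM in Glutamate_BPC, and the microglia, astrocyte and fibroblast and mural sums are all higher in Glutamate_BPC than in Control.

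To see which of these differences were also found between Glutamate_BPC and the cultures given glutamate without it, the same fit was used to test Glutamate_BPC against Glutamate. In that test 0 genes had an adjusted p below 0.05 in edgeR's quasi-likelihood or likelihood-ratio test and 1 in DESeq2; an unadjusted p below 0.05 was reached by 154 genes. Past p and fold were 57 genes in the higher direction (0.396%) and 96 in the lower (0.667%). With the replicate number as a block, which paired these libraries (the correlation of deviations was 0.45, 0.75 and 0.48), 481 genes were past p and fold, and still 0 had an adjusted p below 0.05. Leaving out single libraries moved the unblocked count of 153 to between 89, without Glutamate 2, and 235, without Control 1.

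Of the 168 genes named by rule for the comparison with Control, 9 were higher and 3 lower past p and fold against Glutamate, all with an adjusted p of 1 in edgeR. They were chosen for their values in Glutamate_BPC, and the same libraries enter this test, so these counts are a description only. Gja5 was at 2.20, 0.381 and 1.65 CPM in Glutamate, below all Glutamate_BPC libraries, with a log2 difference of 2.35 ± 0.63. Ccn2 was at 27.0, 12.3 and 4.09 CPM in Glutamate, and Glutamate_BPC differed by 2.00 ± 0.64, with overlap between the groups. Fxyd5 was at 2.07, 1.21 and 4.09 CPM in Glutamate, below all Glutamate_BPC libraries. Dysf, Nr4a1, Kcnip3, Fbln5, Me1 and Gal were the others that were higher, with log2 differences from 0.74 to 2.67, and Tgfb2, Cplx2 and Tubb4a were lower, with differences of -1.29 ± 0.50, -1.58 ± 0.60 and -1.03 ± 0.44.

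The values against Control are set side by side here, with the same 3 Control libraries in both differences. The log2 difference from Control was 4.26 in Glutamate_BPC and 3.59 in Glutamate for Ccn1, 1.83 and 2.13 for Fos, and -1.97 and -2.02 for Tubb3. The list medians were 1.29 and 1.67 for AP-1 factors, -1.85 and -1.62 for neuron markers, -1.58 and -1.24 for release machinery, -1.35 and -0.81 for AMPA receptors, and 1.20 and 0.53 for matricellular proteins and fibulins. No test was made of these medians against each other.

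Against Glutamate_secret, which received another preparation, 20 genes were higher (0.139%) and 47 lower (0.326%) past p and fold. An unadjusted p below 0.05 was reached by 67, and 0 had an adjusted p below 0.05 in edgeR or DESeq2. With the block, since the numbers paired these libraries too (0.46, 0.78 and 0.56), 177 were past p and fold. The unblocked count of 67 lay between 25, without Glutamate_secret 3, and 441, without Glutamate_secret 2. Of the genes named by rule, 1 was higher, Cyp51, and 1 was lower, Cplx2, which was at 40.3, 20.6 and 49.6 CPM in Glutamate_secret. For Gja5 the log2 difference between both preparations was 0.97 ± 0.60, and for Tubb3 it was 0.22 ± 0.42.

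**Figure D5:**
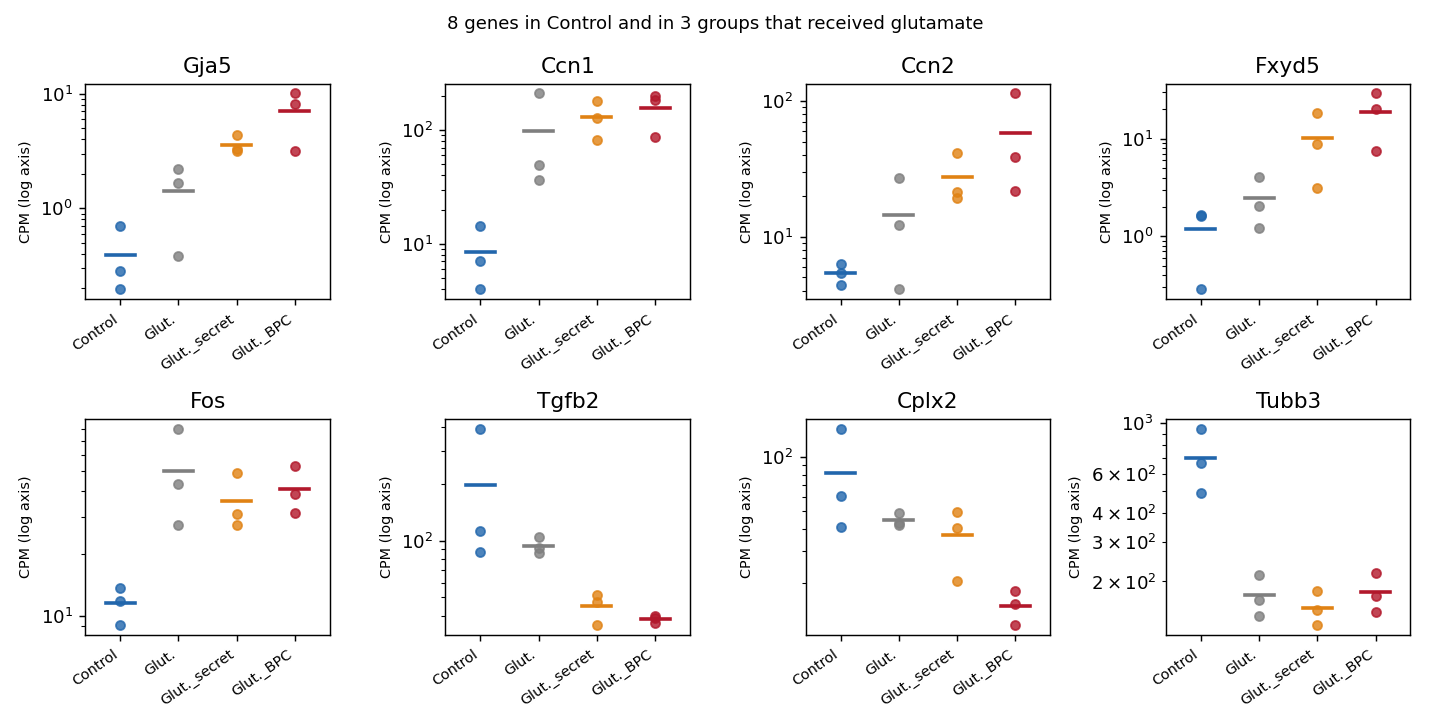
CPM on log axes of 8 genes in the 3 libraries each of Control, Glutamate, Glutamate_secret and Glutamate_BPC, with bars for the means. Gja5 and Fxyd5 are higher in every Glutamate_BPC library than in every Glutamate library, Tgfb2 and Cplx2 are lower, and Fos and Tubb3 overlap among the 3 groups that received glutamate.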

How the data were processed

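RNA was sequenced from primary neuroglial cultures, 3 libraries in each of 6 groups. The deposited values are expected counts per gene, which according to the paper's methods the authors obtained by trimming reads, quantifying them with Salmon against rat transcripts and summing to genes with tximport; the submitters' processing notes name rn6, STAR and Salmon. Versions of the aligners are not given in the sources used here, and the sources differ on the library kit. The values carry no scaling between libraries, and whether counting used strand is not stated, so overlapping genes may share counts.

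Counts were rounded to whole numbers and analysed in R 4.3.3 with edgeR 4.0.16. Low genes were removed by filterByExpr (minimum count 10, minimum total 15), which left 14398 of 31463, and libraries were scaled by TMM. The model held all 18 libraries with 1 mean for each group. The two-sided quasi-likelihood test with Benjamini-Hochberg adjustment was the main test, and p-values without adjustment come from the same fit. The likelihood-ratio test, which the study used, and DESeq2 1.42.0 were alternatives, as were other scaling, no filter, the 6 libraries alone, removal of 78 rRNA rows, the rRNA share as a covariate, the replicate block and leaving out each library. CPM are at the TMM-scaled library size, without a prior count. SE was derived from the F statistic. The scripts were tested on simulated data whose spread was set in advance. That check does not show which differences could be found in these libraries. Intervals from counts would cover counting error only, and none are given.

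Samples were grouped by their treatment label. Named genes were the 10 higher and 10 lower genes with the smallest p among those whose mean log2 CPM reached 1, with a gene symbol and groups without overlap, up to 4 genes of smallest p in each of 39 lists (896 of 917 entries matched the files), and 10 fixed genes. Some genes that the rule takes are not reported here. The comparison, the rule and the lists were chosen with earlier results of these data known. Same-numbered Glutamate_BPC and Control libraries were not paired by their deviations, whereas those of Glutamate_BPC with Glutamate and with Glutamate_secret were (all correlations above 0.1).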

Additional observations from a re-analysis of the deposited data

How the results depend on the processing

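Counts depended on the tool and on single libraries. Against 0 genes called and 1628 past p and fold in the main test of Glutamate_BPC with Control, the likelihood-ratio test called 61 and DESeq2 256, and a fit that took the rRNA share (log2) as covariate called 18 and gave 2708 past p and fold. A fit of the 6 libraries alone called 0 of 13552 genes, with 0.0822 as the smallest adjusted p in the quasi-likelihood test. It gave 2442 past p and fold, 962 higher and 1480 lower. Against Glutamate, DESeq2 called 1. With the replicate block, 251 genes were called (78 higher and 173 lower) and 3080 were past p and fold, but the numbers did not pair Control with Glutamate_BPC (correlations of deviations of 0.31, 0.47 and -0.26), and Glutamate_BPC 3 correlated best with Control 1 (0.32). Leaving out 1 of the 6 libraries compared gave 952 (without Glutamate_BPC 3) to 1718 (without Control 3) genes past p and fold, leaving out 1 of Glutamate or Glutamate_secret gave up to 1721, and 0 were called each time; without Control 1 the share higher fell from 34.5% to 25.5%. Counts past p and fold against Glutamate and Glutamate_secret, 153 and 67, were 272 and 185 without the filter, 534 and 792 with the rRNA covariate, 481 and 177 with the block, and 127 against Glutamate_secret in DESeq2. The share of genes with groups apart was 24.9%, and leaving out 1 of the 6 libraries raised it to at least 27.8% (without Control 2). It was highest without Control 1, at 55.5%, and next without Glutamate_BPC 2, at 38.1%. No gene was called in the main test, so none could lose a call; of 1903 log2 fold changes of 136 genes, 130 became called and 1 reversed, Micu3, which ranged from -3.57 without Control 3 to 0.11 without Control 1. Sizes moved too: Flrt3 was at -0.20 without Control 1 and -3.46 without Control 3. Of 546 list medians, 514 kept their sign. Fewer libraries make a separation of ranges easier, whichever library is left out. The cause of these differences was not tested. Control 1 had the fewest counts, and genes of low level were measured least precisely there.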
